A study of Mus musculus with 2 samples.

Results

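Primary granules, also called azurophil granules, are the storage organelles that neutrophil precursors fill before any other granule type, and 9 genes of their proteins and of proteins that process, carry or restrain them were read here in mouse common myeloid progenitors. The genes were taken by symbol: Mpo, Elane, Prtn3 and Ctsg for stored enzymes, Ctsc for the activating protease, Srgn for the storage proteoglycan, Serpinb1a for a protease inhibitor, and Ms4a3 and Plac8, which are transcribed in granulocyte precursors but whose products are not known as granule cargo. All 9 were matched by Ensembl identifier among the 43346 Ensembl genes of each deposited gene table. The choice names genes by function and sets no limit on a measured value.

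Myeloperoxidase makes hypochlorous acid from hydrogen peroxide and chloride, and its precursor folds on chaperones of the endoplasmic reticulum and takes up haem there. Elastase, proteinase 3 and cathepsin G are serine proteases made as inactive precursors, from which cathepsin C removes an amino-terminal dipeptide. Serglycin is a small core protein with chondroitin sulfate chains that retains such enzymes in the granule. Serpinb1a, a serpin of the cytosol and nucleus, inhibits elastase, proteinase 3 and cathepsin G when they leave the granule. Common myeloid progenitors stand before the promyelocyte, the stage at which these granules are filled.

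The RNA came from common myeloid progenitors, a primary cell population of male adult C57BL/6J mice 5 to 6 weeks old, isolated from bone marrow according to the title of the linked isolation protocol. The 2 libraries, called replicates 1 and 2 here, form 1 group with no treatment or genotype contrast. The labels call them biological replicates and also give both the same donor label, which may name a strain or an animal. Whether an SD over both holds biological or only technical spread is therefore not known, and no p-value was computed. Both were made with ScriptSeq from 100 ng of RNA after removal of ribosomal RNA, with size ranges labelled 200 to 1000 and 187 to 1606 without a unit. RNA of many cells was measured together, so a low level in every cell and a high level in few cells cannot be told apart.

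Replicate 1 held 28158803 expected counts over Ensembl genes and replicate 2 held 84041054, a ratio of 2.99. Length-corrected transcript abundances (TPM) are per length and were used to set genes beside each other, while counts scaled to the library total (CPM) were used to set the libraries beside each other. Nuclear protein-coding genes held 20.1% and 21.5% of TPM, and their median was 0.29 TPM in replicate 1 and 0.35 in replicate 2. The labelled cell type was checked by marker lists. All 5 progenitor surface genes reached 1 TPM in both libraries, with Kit at 33.5 and 39.8 TPM, against 0 of 5 stem cell genes and 0 of 5 B cell genes. Of mature neutrophil markers 4 of 8 reached 1 TPM in both libraries, with a summed level of 26.3 and 29.0 TPM. The highest of the 8 was Camp at 14.2 and 14.6 TPM. Ly6g, a defining marker, had 23 counts in replicate 1 and 0 in replicate 2. Other lists had 4 of 7 monocyte, 3 of 8 mast cell and basophil, 1 of 6 eosinophil, 4 of 5 megakaryocyte, 1 of 4 lymphoid progenitor, and 1 of 5 T and NK cell genes at that level. Of erythroid markers 5 of 7 reached it, with a summed level of 203 and 218 TPM, above the 188 and 196 TPM of the progenitor surface list. Most of that was Car1, a carbonic anhydrase gene of red cell precursors, at 166 and 183 TPM. The part of such cells in the granule gene levels was not tested.

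All 9 granule genes reached 1 TPM in both libraries, against 42.5% of 21461 nuclear protein-coding genes. Their median level was 44.6 TPM in replicate 1 and 44.9 TPM in replicate 2, or 44.7 ± 0.177 TPM (SD, n = 2). In both libraries this median is the level of Serpinb1a, so the SD is that of 1 gene. The SD of single genes reached 83.4 TPM, for Plac8. The median percentile of the 9 genes among nuclear protein-coding genes was 96.8, also that of Serpinb1a. Together they took 0.328% of all counts in replicate 1 (95% Wilson interval 0.326 to 0.33) and 0.325% in replicate 2 (0.324 to 0.326). The reads carry no molecular identifiers, so these intervals and the limits for counts of 0 given below cover counting error only. Mpo alone made up 48.7% and 52.5% of the counts of the 9 genes.

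**Figure D1:**
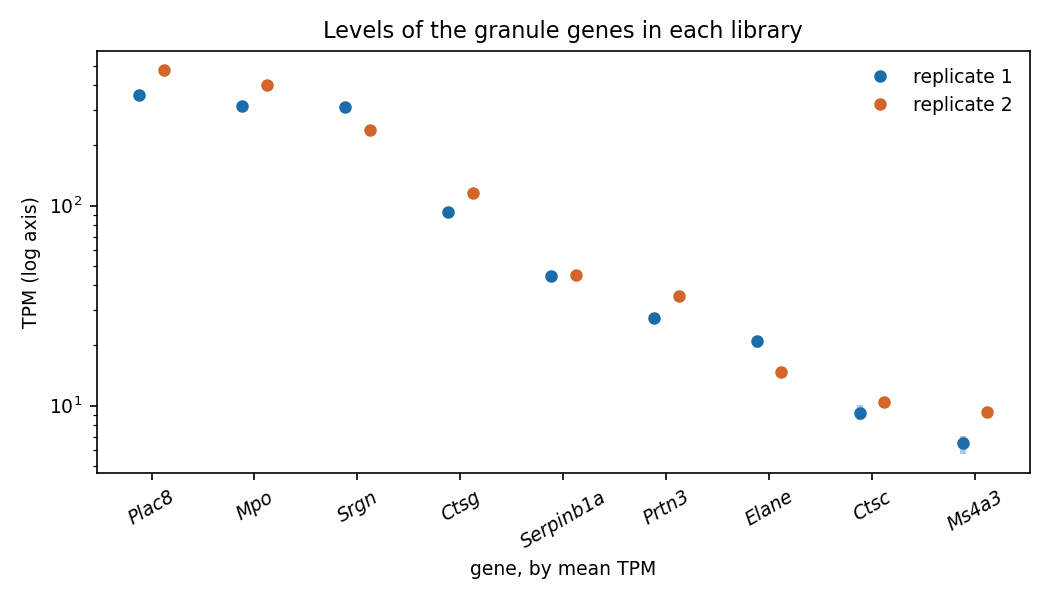
TPM of the 9 granule genes in replicates 1 and 2, on a log axis, with genes ordered by mean TPM. Points are the deposited TPM and the pale bars behind them the deposited TPM interval, which is often smaller than the point; Plac8, Mpo and Srgn lie at or above 238 TPM in both libraries, and Ms4a3 is lowest at 6.49 and 9.28 TPM.

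Among the stored enzymes Mpo, the peroxidase, was the highest. Mpo (ENSMUSG00000009350.9, chromosome 11 from 87793581 to 87804413, plus strand) had 44993 counts in replicate 1 and 143522 in replicate 2. Its level was 314 TPM in replicate 1 and 399 TPM in replicate 2, or 357 ± 60.1 TPM. It ranked 106th and 85th of the nuclear protein-coding genes in replicates 1 and 2. Scaled for depth, it stood at 1598 and 1708 CPM, so the libraries lay within 1.07-fold of each other.

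Ctsg, the gene of cathepsin G, was the most abundant of the granule serine proteases. Ctsg (ENSMUSG00000040314.1, chromosome 14 from 56099881 to 56102574, minus strand) had 5604 and 18054 counts and stood at 93.4 TPM in replicate 1 and 116 TPM in replicate 2. The ratio of Mpo to Ctsg in TPM was nearly the same in the libraries, 3.37 and 3.45. Prtn3, the gene of proteinase 3 (ENSMUSG00000057729.8, chromosome 10 from 79874476 to 79883174, plus strand), had 1332 and 4330 counts and stood at 27.3 and 35.4 TPM. The ratio of Ctsg to Prtn3, 3.42 and 3.27, also stayed close between the libraries.

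Elane, the gene of neutrophil elastase, was by gene TPM the lowest of the stored enzymes and the only one of them that was lower in replicate 2. The coding model of Prtn3, described below, stood lower than Elane, at 9.51 and 9.75 TPM. Elane (ENSMUSG00000020125.6, chromosome 10 from 79886247 to 79888215, plus strand) had 1126 counts in replicate 1 and 2050 in replicate 2, although replicate 2 was deeper by 2.99 times. Its level was 20.9 TPM in replicate 1 and 14.7 TPM in replicate 2, or 17.8 ± 4.44 TPM. The TPM ratio of Mpo to Elane was therefore 15.0 in replicate 1 and 27.2 in replicate 2, and that of Ctsg to Elane 4.46 and 7.9. Prss57, a further granule serine protease and the fourth by level in that list, stood at 3.42 and 2.08 TPM, below Elane by 6.12 times in replicate 1 and 7.05 times in replicate 2. Cfd, the gene of complement factor D and the last of the 5 genes in the list, had 0 counts in both libraries, which allows up to 3 counts, or 0.107 and 0.0357 CPM in replicates 1 and 2.

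Ctsc, the gene of cathepsin C that activates the serine proteases, was far below the summed level of its substrates. Ctsc (ENSMUSG00000030560.12, chromosome 7 from 88278085 to 88310888, plus strand) had 1455 and 4051 counts and stood at 9.17 TPM in replicate 1 and 10.4 TPM in replicate 2. The summed level of Elane, Prtn3 and Ctsg was 142 and 166 TPM, which is 15.4 and 15.9 times that of Ctsc. Ctsg, at 93.4 and 116 TPM, was the largest part of that sum. Elane alone exceeded Ctsc by 2.28 and 1.4 times, and the coding transcript of Prtn3, described below, stood at 9.51 and 9.75 TPM. That was above Ctsc in replicate 1 and below it in replicate 2. The sum, here and below, takes all models of Prtn3, of which retained intron models held 17.45 and 24.78 TPM. Among 13 cysteine and aspartic cathepsins 10 reached 1 TPM in both libraries, and Ctsc was not among the leading 5 by mean TPM. Those were Ctsd at 26.5 and 42.0 TPM, Ctsz at 21.7 and 27.8, Ctss at 15.6 and 16.7, Ctse at 13.9 and 12.6, and Ctsa at 9.26 and 11.3. Ctsk, a protease of bone-resorbing osteoclasts, had 0 counts in both libraries.

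Srgn, the gene of the storage proteoglycan serglycin, stood near Mpo. Srgn (ENSMUSG00000020077.10, chromosome 10 from 62493833 to 62527451, minus strand) had 17263 and 34486 counts and stood at 311 TPM in replicate 1 and 238 TPM in replicate 2. Mpo exceeded Srgn by 1.01 times in replicate 1 and 1.68 times in replicate 2, so their levels were hardly apart in the one and clearly apart in the other. Srgn stood at 2.2 and 1.43 times the summed TPM of Elane, Prtn3 and Ctsg. Of 16 genes of serglycin and its chondroitin sulfate chains 14 were at 1 TPM or more in both, and the median of the list was 2.44 and 3.02 TPM. Csgalnact2, a transferase that starts and extends chondroitin chains, led the enzymes with 29.0 and 32.3 TPM, and Srgn exceeded it by 10.7 and 7.37 times. Chsy1, which polymerises the chains, stood at 11.7 and 10.8 TPM, Fam20b, the xylose kinase of the linker, at 7.49 and 7.78 TPM, and Chst11, a 4-O-sulfotransferase, at 4.16 and 4.14 TPM.

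Serpinb1a had the most even TPM of the 9 genes. Serpinb1a (ENSMUSG00000044734.11, chromosome 13 from 32842092 to 32851185, minus strand) had 5789 and 14981 counts and stood at 44.6 TPM in replicate 1 and 44.9 TPM in replicate 2. In CPM it was 206 and 178, with a log2 ratio of -0.20, so the even TPM did not carry over to the scale without length. The 3 serine proteases it inhibits summed to 3.17 and 3.7 times its TPM, and it exceeded Elane alone by 2.13 and 3.06 times. Its paralogs Serpinb1b and Serpinb1c had 0 counts in both libraries. The longest stretch shared by transcripts of Serpinb1a and Serpinb1b was 81 bases, and that shared with Serpinb1c 71 bases.

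Other inhibitors of proteases were mixed. Of 18 listed 9 reached 1 TPM in both libraries and 6 had 0 counts in both, which besides both Serpinb1a paralogs were Serpina1a, Serpina1b and Serpina1d, copies of the liver gene of alpha-1-antitrypsin, and Stfa2. Serpinb1a was second in the list to Cst3, the gene of cystatin C, an inhibitor of cysteine proteases, at 62.0 and 59.3 TPM. Cst7, the gene of cystatin F, which inhibits cathepsin C, stood at 18.9 and 25.0 TPM, above Ctsc in both libraries. Serpina3g stood at 12.3 and 16.5 TPM and Cstb at 8.8 and 10.7 TPM.

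Plac8 and Ms4a3 marked the ends of the order. Plac8, the gene of a small cysteine-rich protein (ENSMUSG00000029322.8, chromosome 5 from 100553725 to 100572245, minus strand), had 14402 and 50262 counts and stood at 358 and 476 TPM, or 417 ± 83.4 TPM. It ranked 92nd and 61st of nuclear protein-coding genes. Ms4a3, the gene of a membrane protein with several membrane spans that marks granulocyte and monocyte precursors (ENSMUSG00000024681.7, chromosome 19 from 11629496 to 11640851, minus strand), had 379 and 1431 counts and stood at 6.49 and 9.28 TPM. Of 15 genes of the Ms4a family 5 reached 1 TPM in both libraries and 7 had 0 counts in both, Ms4a1, the B cell gene of CD20, among them. Ms4a6c led the family at 23.5 and 24.0 TPM, followed by Ms4a2, a chain of the mast cell receptor for immunoglobulin E, at 11.4 and 13.3 TPM. Both stood above Ms4a3 in each library, by 3.62 and 2.58 times for Ms4a6c and by 1.75 and 1.43 times for Ms4a2.

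By mean gene TPM, which for Prtn3 includes its retained intron models, the order was Plac8, Mpo, Srgn, Ctsg, Serpinb1a, Prtn3, Elane, Ctsc and Ms4a3. Each of the 8 neighbouring pairs had the same order in both libraries. The ranges over the libraries overlapped for Plac8 with Mpo and for Ctsc with Ms4a3, and for the other 6 pairs they did not. Mpo and Srgn were barely apart, at 314.3 against 311.1 TPM in replicate 1. Their deposited intervals there overlapped, at 304.9 to 314.0 and 301.4 to 310.8 TPM, so the order of this pair is not secure. The deposited TPM of Mpo lay above its deposited interval in both libraries, that of Srgn in replicate 1 and that of Plac8 in replicate 2, and the level of that interval was not given in the sources used here. All 9 genes had whole counts with a posterior SD of 0 in both libraries, so no reads were divided between them and other genes.

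Differences between the libraries were read as log2 ratios of scaled CPM, replicate 2 over replicate 1, and describe 2 samples of 1 group, not an effect of a condition. Scaled in this way 5 of the 9 genes were higher in replicate 2 and 4 lower, with a median ratio of 0.10 beside 0.02 over all 12704 genes with a mean count of at least 50. Elane stood at 40.0 CPM in replicate 1 and 24.4 CPM in replicate 2, a log2 ratio of -0.71 with a 95% counting interval of -0.81 to -0.60. It was the only one of the 9 that differed at least 1.5-fold either way, and over all such genes 21.4% did. Lower by that much in replicate 2 were 8.45% of all genes and Elane, and higher by that much were 13% of all genes and 0 of the 9. The same count was also taken at a mean count of at least 1000, a limit added after the data were seen, where 5.52% of 7286 genes differed either way and 1.94% were lower. There 1 of 8 granule genes, Elane, passed.

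Srgn stood just short of that fold, 1.49 against 1.64 for Elane, at 613 and 410 CPM. The other 7 genes lay within 1.27-fold. Of the genes higher in replicate 2, Ms4a3 had the highest ratio, 1.27-fold, at 13.5 and 17.0 CPM, followed by Plac8 with 1.17-fold, at 512 and 598 CPM. Ctsc and Serpinb1a were lower in replicate 2 in CPM and higher in deposited TPM. In TPM rescaled to protein-coding genes the log2 ratio of Ctsc was 0.09, against -0.10 in CPM, and that of Serpinb1a -0.09, against -0.20. Prss57, not one of the 9, was lower in replicate 2 but short of 1.5-fold, at 15.6 and 11.0 CPM, a log2 ratio of -0.51. Prtn3 and Ctsg of the same protease list were higher in replicate 2, with ratios of 0.13 and 0.11. The libraries differed in depth and in labelled size range, and the part of either in the Elane and Srgn ratios was not tested.

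**Figure D2:**
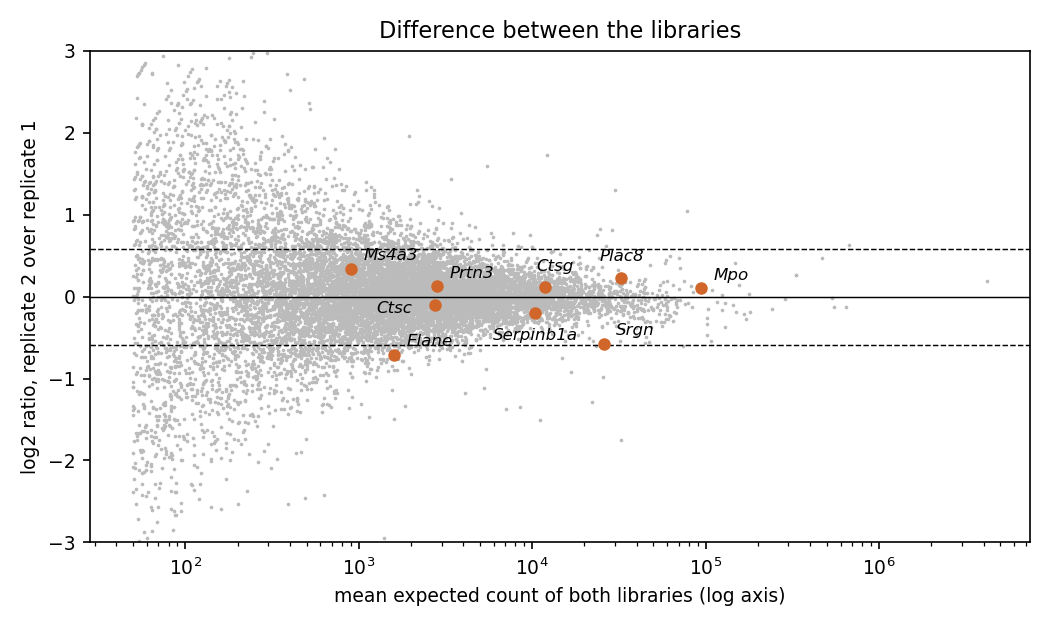
Log2 ratio of scaled CPM, replicate 2 over replicate 1, against the mean expected count (log axis) for 12704 genes in grey and the 9 granule genes in orange, with dashed lines at 1.5-fold. Elane lies below the lower line and Srgn almost on it, and 225 grey genes with a log2 ratio beyond 3 either way are not shown.

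Prtn3 and Elane are neighbours on chromosome 10, on the same strand with 3072 bases between them. The next protein-coding genes had unlike levels. Cfd, a serine protease gene 2637 bases beyond Elane, had 0 counts in both libraries, and Ptbp1, the gene of a splicing regulator 9704 bases before Prtn3, stood at 43.8 and 49.0 TPM. Plppr3, on the opposite strand, overlaps the upstream exon of one Prtn3 model and stood at 8.42 and 10.3 TPM. Around Mpo, the nearest genes were Lpo, the gene of lactoperoxidase, at a distance of 2014 bases and with 0 counts in both libraries, and Tspoap1, 7652 bases away at 2.51 and 1.87 TPM. Of the related peroxidase genes Mpo, Epx, Lpo and Pxdn, only Mpo passed 1 TPM in both libraries, while Epx, the eosinophil peroxidase gene, had 28 and 193 counts and 0.15 and 0.4 TPM, and Lpo and Pxdn had 0. Around Ctsg, Mcpt8, a basophil protease gene 14607 bases away, stood at 4.86 and 3.51 TPM, and Gzme, 15051 bases away on the other side, had 0 counts. Of 15 genes of that protease cluster 12 had 0 counts in both libraries, and Ctsg and Mcpt8 were the 2 that reached 1 TPM in both.

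**Figure D3:**
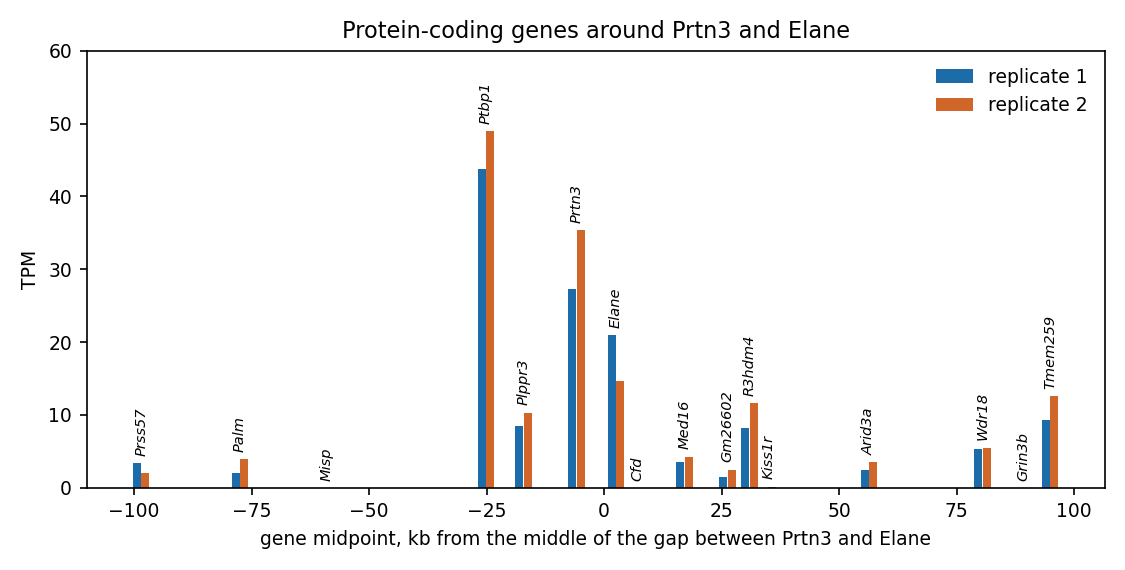
TPM of protein-coding genes within 100 kb of the middle of the gap between Prtn3 and Elane, by distance of the gene midpoint, with bars for replicates 1 and 2. Prtn3 was higher and Elane lower in replicate 2, Cfd next to them was at 0, and Ptbp1 was the highest gene in the window.

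The sequences before the start sites of the 3 serine protease genes are shown because these genes share a product class, and Prtn3 and Elane a locus, while Elane alone of the 3 was lower in replicate 2. Each begins 250 bases before the start given by RefSeq on GRCm38.p6 and is read 5′ to 3′ on the strand of the gene. In GENCODE M21 transcripts begin 65 bases before the RefSeq start in Elane and 53 bases before it in Prtn3, and the sequences shown end there. Elane is at chr10:79886062-79886246 on the plus strand, Prtn3 at chr10:79879417-79879613 on the plus strand and Ctsg at chr14:56102575-56102824 on the minus strand. Capitals mark matches on either strand to GAGGAA, a purine box of the kind bound by PU.1. They also mark matches to AACNG, a core of Myb sites. The last motif marked is TATAA, the core of a TATA box. The motifs were chosen after the sequences were seen, and none of the matches shown overlap.
Elane: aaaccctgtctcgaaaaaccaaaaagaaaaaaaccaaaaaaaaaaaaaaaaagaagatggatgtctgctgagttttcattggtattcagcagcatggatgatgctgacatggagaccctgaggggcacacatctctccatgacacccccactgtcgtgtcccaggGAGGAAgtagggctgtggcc
Prtn3: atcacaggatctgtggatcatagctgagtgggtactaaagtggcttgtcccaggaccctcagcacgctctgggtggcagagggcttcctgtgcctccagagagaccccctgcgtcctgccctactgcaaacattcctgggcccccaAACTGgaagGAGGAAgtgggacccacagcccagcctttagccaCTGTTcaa
Ctsg: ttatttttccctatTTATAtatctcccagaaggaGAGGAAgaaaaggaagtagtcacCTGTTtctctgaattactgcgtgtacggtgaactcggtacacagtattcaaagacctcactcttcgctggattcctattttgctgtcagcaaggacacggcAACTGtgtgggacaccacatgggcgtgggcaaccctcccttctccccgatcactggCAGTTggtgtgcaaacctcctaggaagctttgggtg

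Distances are counted from the RefSeq start. GAGGAA began 85 bases before the start of Elane and 95 before that of Prtn3. TATAA began 31 and 32 bases before, which is inside the GENCODE M21 models Elane-201 and Prtn3-201 and not shown. Both genes carried GAGGAA inside the shared run ggaggaagt, and a further shared run of 9 bases, tgtcccagg, began 94 bases before the Elane start and 205 before the Prtn3 start. In Ctsg GAGGAA began 216 bases and TATAA, on the opposite strand, 236 bases before the start. Matches to AACNG in the 250 bases numbered 2 in Elane, 3 in Prtn3 and 3 in Ctsg, and both in Elane and 1 in Prtn3 reached into the GENCODE M21 model. Elane-201 is 920 bases long in the deposited tables and 984 in GENCODE M21, so the start of the model that was quantified may differ. Over 32851 windows of the same length in RefSeq, 23.3% held GAGGAA, 74.2% AACNG and 22.8% TATAA. Among 10 start windows of the granule genes 6 held GAGGAA, 8 held AACNG and 4 held TATAA, and TTGCNNAA, a C/EBP type site, was in 1 against 9.56% of all windows. No window of Serpinb1a was among them. A match of letters is a description of the sequence and not a bound site.

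Transcript models within a gene were read as shares of its TPM. Elane and Ctsg had 1 model each, and in Plac8, Srgn and Serpinb1a one model held at least 97.0% in each library. Mpo, Prtn3, Ctsc and Ms4a3 were divided. Levels and shares of models are estimates that divide reads over shared exons. Of 23 models with at least 1% of their gene in either library, 20 had the same length in the deposited tables, on GENCODE M4, and in GENCODE M21, from which exons and starts were taken.

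In Prtn3 the leading model was not the coding one. Prtn3-204, a retained intron model, accounted for 55.2% and 61.0% of Prtn3 TPM in replicates 1 and 2, at 15.1 and 21.6 TPM. Prtn3-201, the model with the full reading frame, held 34.8% and 27.5%, at 9.51 and 9.75 TPM, so its TPM hardly differed between the libraries. Its estimated counts were 588 and 1562, while replicate 2 was deeper by 2.99 times, so the evenness is one of TPM only. All retained intron models together held 63.9% and 70.0% of Prtn3 TPM, or 66.9% ± 4.29. Over 4259 protein-coding genes with such a model and at least 100 counts in each library, the median was 7.65% and 9.01%, and 56 of them stood at or above Prtn3 in both. Set against Elane, the order changed with the model: Prtn3 as a gene exceeded Elane by 1.3 and 2.42 times in TPM, while Elane exceeded Prtn3-201 by 2.2 and 1.5 times.

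The join that separates both Prtn3 models is shown because it is what tells them apart. Prtn3-204 begins with 56 bases of intron 2, which is 442 bases long, and runs on through exons 3 to 5, so that 730 of its 786 bases, 92.9%, are also in Prtn3-201. Below, exon 3 is in lower case in both models, starting at base 79881036 of chromosome 10 on the plus strand of GRCm38. Capitals mark the end of exon 2 in Prtn3-201 and the intron bases in Prtn3-204, and both sequences are from GENCODE M21.
Prtn3-201: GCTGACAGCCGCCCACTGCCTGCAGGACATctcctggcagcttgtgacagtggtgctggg
Prtn3-204: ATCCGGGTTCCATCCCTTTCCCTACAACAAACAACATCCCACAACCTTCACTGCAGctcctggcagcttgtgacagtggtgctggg

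The stretch of exon 2 includes the in-frame codon CAC of the active-site histidine of the protease, which begins 17 bases before exon 3. Prtn3-204 holds neither that codon nor the start of the reading frame. The intron stretch ends in AG, the usual last bases of an intron.

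Mpo was divided among coding models. Mpo-203 accounted for 64.1% and 61.2% of Mpo TPM, and Mpo-201 held 15.1% and 15.4%. Both have 14 exons, of which 13 are identical, and their starts are 628 bases apart, with a first exon of 154 bases in Mpo-203 and 495 in Mpo-201. Of the TPM of this pair Mpo-203 held 80.9% and 79.9%, so the division between the starts was alike in the libraries. Mpo-205, a short model of 2 exons at exons 12 and 13 that runs 216 bases past exon 13, held 19.4% and 21.5% of TPM but 4.4% and 5.11% of counts. Mpo-206, a retained intron model, held 1.3% and 1.27%.

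Ctsc had a coding lead with a retained intron share of TPM above that of Mpo. Ctsc-201, of 7 exons, accounted for 66.4% and 63.2% of Ctsc TPM. Ctsc-203, a coding model of 4 exons, held 16.6% and 14.9%. It begins at base 88278134, against 88278085 for Ctsc-201. Ctsc-204, which runs 251 bases into intron 2, held 17.0% and 17.2% of TPM but 3.43% and 3.73% of counts. That was 49.9 and 151.2 estimated counts in replicates 1 and 2. Retained intron models together held 17.0% and 21.9% of TPM, with Ctsc-205, a second such model, at 0 counts in replicate 1 and 44.5 in replicate 2.

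Ms4a3 differed most between the libraries in its models and had the fewest reads. Ms4a3-202 made up 65.9% of Ms4a3 TPM in replicate 1 and 93.2% in replicate 2, and Ms4a3-201 held 34.1% and 1.73%. Both have 7 exons and differ by 29 bases at the start, 18 bases at the start of exon 2 and 3 bases at the end of the gene. The division rested on 134 and 24.8 estimated counts of Ms4a3-201, with a deposited posterior SD of 22.9 and 17.9. In Srgn the models differ by start site: Srgn-201 held 97.0% and 97.8%, and Srgn-204, which starts 19696 bases upstream, held 1.6% and 1.53%.

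**Figure D4:**
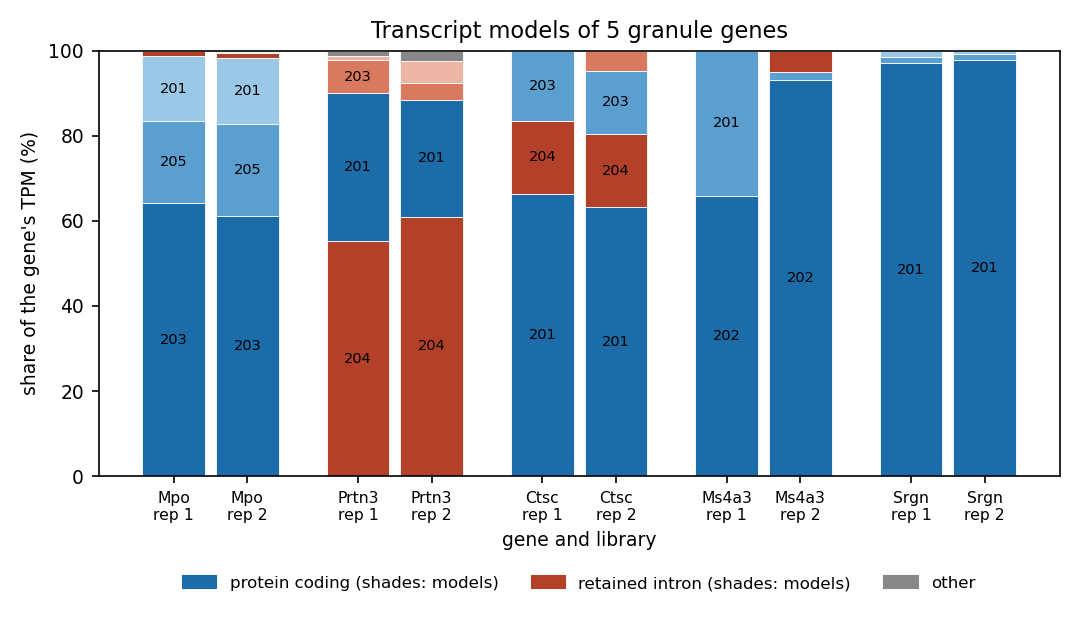
Share of each gene's TPM (%) held by its transcript models, for 5 granule genes in replicates 1 and 2; blue shades are protein-coding models, red shades retained intron models and grey the rest, and numbers are model names. Prtn3 is led by the retained intron model Prtn3-204 in both libraries, and Ms4a3 divides differently in replicates 1 and 2.

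Genes that fold, load and sort these proteins were all transcribed. The 8 listed chaperones of the endoplasmic reticulum had a median of 153 and 161 TPM, and all reached 1 TPM in both libraries. Calr, the gene of calreticulin, which binds the Mpo precursor, stood at 412 and 458 TPM, above Mpo by 1.31 and 1.15 times. Canx, the gene of its membrane partner calnexin, stood at 209 and 275 TPM, and Hspa5, Erp29 and Hsp90b1 lay between 151 and 198 TPM. The 8 haem synthesis genes had a median of 9.76 and 12.4 TPM, all at or above 1 TPM, with Urod at 18.2 and 15.4 TPM and Alas1, the rate-limiting enzyme outside red cells, at 13.9 and 12.6 TPM. None of the 16 chaperone and haem genes differed 1.5-fold between the libraries in scaled CPM. Over all genes 21.4% did at a mean count of at least 50, and 5.52% at a mean count of at least 1000. In deposited TPM a haem synthesis gene did pass 1.5-fold.

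Of 16 genes of granule sorting and congenital neutropenia all reached 1 TPM in both libraries, with a median of 6.5 and 7.99 TPM. None differed 1.5-fold in scaled CPM, against the same 21.4% and 5.52% of all genes, while in deposited TPM some did. M6pr, a mannose 6-phosphate receptor that carries lysosomal enzymes, led at 64.4 and 72.9 TPM. Ap3b1, a subunit of the AP-3 sorting adaptor, stood at 18.5 and 23.4 TPM, and Rab27a, a GTPase of granule release, at 11.6 and 15.0 TPM. Gnptab, which makes the mannose 6-phosphate tag, stood at 11.1 and 15.2 TPM, and Hax1, a mitochondrial protein gene mutated in congenital neutropenia, at 12.3 and 12.1 TPM.

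Genes of later neutrophil granules and of mature neutrophils had a lower median than the 9 granule genes, 2.15 and 2.81 TPM over 16 genes, and 12 of them reached 1 TPM in both libraries. They were not uniformly low. S100a8 and S100a9, the calprotectin genes, stood at 137 and 142 TPM and at 71.2 and 67.9 TPM, above Ctsg and below it. Ngp stood at 25.4 and 30.8 TPM, Camp, the cathelicidin gene, at 14.2 and 14.6 TPM, and Ltf, the lactoferrin gene of secondary granules, at 6.77 and 7.94 TPM. Elane and Prtn3 were thus below S100a8 and S100a9 in both libraries, while Elane exceeded Camp by little in replicate 2, at 14.7 against 14.6 TPM.

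**Figure D5:**
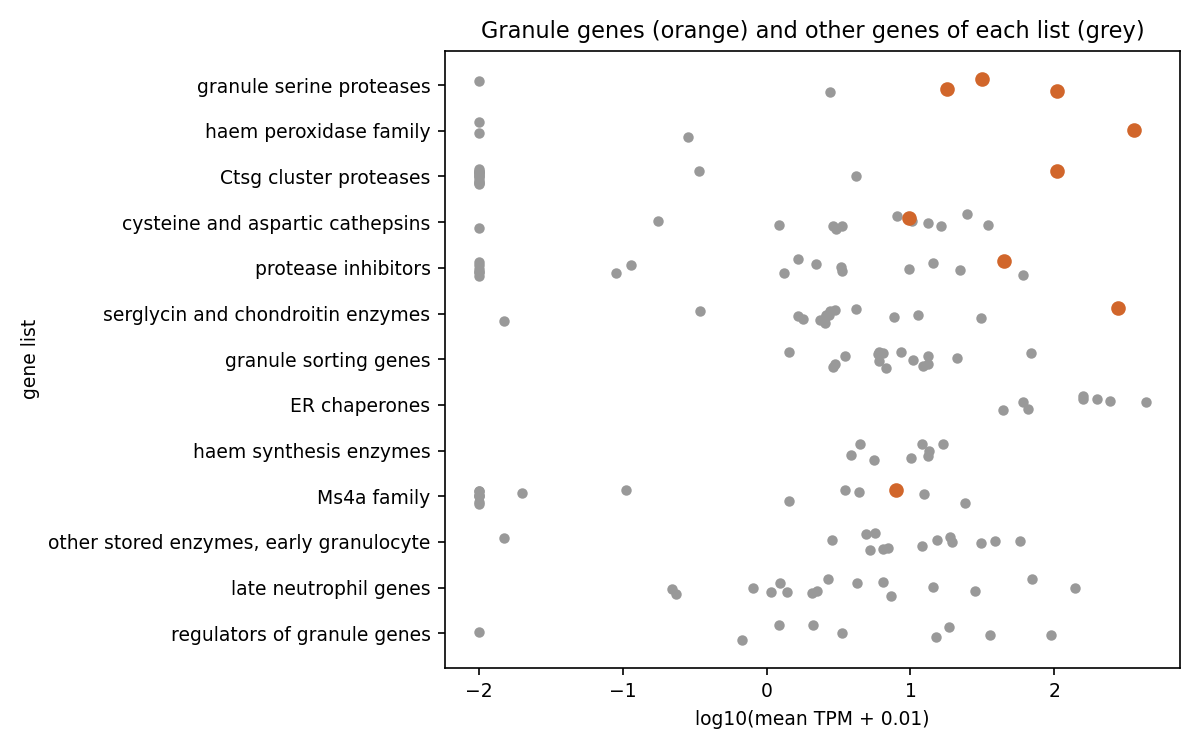
Mean TPM of both libraries on a log10 scale after adding 0.01, one point per gene and one row per gene list, with the granule genes in orange and genes at 0 counts on the left edge. Mpo and Srgn stand apart from the other genes of their lists, and Ctsc lies within the range of the other cathepsins.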

How the data were processed

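Total RNA sequencing of common myeloid progenitors gave 2 libraries of 1 group. The readme of each library names mm10 and GENCODE M4, and the authors deposited gene and transcript tables for each; the aligner and quantifier are not given in the sources used here. Per the file headers, the deposited expected counts are estimated reads that need not be whole, and the deposited TPM values are corrected for effective length over all 69691 entries. The deposited interval bounds and posterior SDs are a signal in the unit of the value beside them, and the deposited percent of each gene per transcript differed from the shares computed here by at most 0.0422. The 9 genes and the 25 pathway and marker lists were chosen with earlier results of these data known.

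Expected counts were rounded and scaled with TMM in edgeR 4.0.16 (R 4.3.3), and log2 ratios were taken with a prior count of 0.5 over genes with a mean count of at least 50. DESeq2 1.42.0 size factors, total counts, a prior count of 5, no filter, rescaled TPM with a pseudocount of 0.5, posterior mean TPM and leaving out each library were alternatives. No test was made, because there is no contrast. All 9 genes were named, and in other lists the 5 of highest mean TPM, genes with 0 counts in both libraries, the nearest neighbours of 4 granule genes, and transcripts with at least 1% of a gene. One listed gene is not reported here. Kit, Ly6g, Car1 and Plppr3 fall outside that rule and were chosen after their values were seen. In simulated data over 12704 genes, with a coefficient of variation of 0.1, 97% of 200 genes changed 2-fold passed 1.5-fold. Of unchanged genes 1.88% did. In the libraries 21.4% of 12704 genes passed, so the simulated spread was narrower than theirs. The 1.88% therefore gives no rate of chance calls for them. Names, classes and coordinates are from GENCODE M21 on GRCm38. Start windows are from RefSeq. Other steps used Python 3.11.15 with numpy 2.4.6, pandas 2.3.3, matplotlib 3.10.9 and, for intervals, scipy 1.17.1.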

Additional observations from a re-analysis of the deposited data

How the results depend on the processing

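With posterior mean TPM the median level of the 9 granule genes was 44.2 TPM against 44.7. Their median percentile of 96.8 became 94.0 among genes with at least 10 counts in both libraries and 95.9 by CPM. Without replicate 1 or 2 the median level was 44.9 or 44.6 TPM, each again the level of Serpinb1a. The number of granule genes at 1 TPM, 9, and the number past 1.5-fold, 1, stayed the same in all alternatives run for them. With no filter on low counts 39.3% of 17339 genes passed 1.5-fold, against 21.4%, and under the other scalings 21.0% to 24.8% did. Of 90 alternative values for single genes and transcripts 12 moved. For levels and shares this means by at least the SD of the libraries and for log2 ratios beyond the counting interval. Part of the 90 could not move. Leaving out 1 of 2 libraries always shifts their mean by less than their SD. The filter does not enter the ratio of a single gene, and a gene with 1 model keeps a share of 100%. The 12 of 90 is therefore no measure of stability. In TPM rescaled to protein-coding genes the ratios of all granule genes but Elane and Ms4a3 moved. That of Ctsc changed sign there, from -0.10 to 0.09, and that of Elane, the only called gene, did not. No paired analysis was possible because there is only 1 group. With 2 libraries, likeness of pattern between genes could not be computed, and Ms4a3, with 379 counts in replicate 1, was limited most by depth.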

Other observations

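Other stored enzymes and early granulocyte genes were transcribed beside the granule genes, with 13 of 14 at 1 TPM or more in both libraries and a median of 8.45 and 10.7 TPM. Lyz2, the lysozyme gene of myeloid cells, stood at 56.6 and 58.5 TPM, above Elane and Prtn3 in both libraries. Igfbp4 stood at 36.7 and 40.2 TPM, Clec12a, an inhibitory lectin receptor gene, at 32.5 and 29.3 TPM, Hexa, a lysosomal hexosaminidase gene, at 18.6 and 20.1 TPM, and Nkg7 at 19.5 and 18.1 TPM.

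Regulators known to act on granule genes were unequal in level, with 6 of 9 at 1 TPM or more in both libraries. Myb stood at 84.1 and 106 TPM and Cbfb, the partner subunit of Runx proteins, at 34.2 and 36.9 TPM. Runx1 stood at 16.5 and 20.6 TPM and Spi1, which encodes PU.1, at 13.4 and 16.5 TPM. Cebpa, a factor needed for the step to granulocyte and monocyte progenitors, was lower at 2.6 and 4.12 TPM, and Lef1 had 0 counts in both libraries.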
